A study of Homo sapiens with 6 samples.

Results

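The genes of class I antigen presentation were described in the chromatin accessibility data of senescent and non-senescent EndoC-βH3 cells. The set held 9 genes, HLA-B, HLA-C, HLA-E, HLA-F, B2M, TAP1, TAP2, TAPBP and NLRC5. An accessible region was a promoter region of a gene if it overlapped 2 kb on either side of the start of one of its protein-coding transcripts, and a distal region if the nearest protein-coding start to its midpoint was that of the gene and lay within 100 kb. By this rule, which used no measured value, the 9 genes had 10 promoter regions among 20094 and 8 distal regions among 88448, or 18 of the 108542 regions of the table.

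EndoC-βH3 is a human beta cell line made from fetal pancreas and immortalised by transgenes that Cre recombinase can remove. Both groups were cells of this line with the genotype label WT. The senescent group had been treated with 4-hydroxytamoxifen (4-OHT), which activates Cre, for 3 weeks, and the non-senescent group is labelled as control. Each group had 3 ATAC-seq libraries of 100000 cells, and nothing in the labels says that the libraries came from separate cultures. The 4-OHT treatment, the loss of the transgenes and senescence coincide in this design and cannot be told apart. In ATAC-seq a transposase cuts open DNA, so reads collect where chromatin is accessible.

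The authors' deposited table gives each region a mean signal, which is the normalised read count averaged over all libraries, and a log2 fold change with its standard error (SE). It gives no value for a single library, so values per library cannot be shown here and precision is given by the SE alone. Which group is the numerator is not stated in the table. Senescent cells were taken to be the numerator, following the wording of the study. The promoter region of MKI67, a proliferation marker, had a log2 fold change of -0.53 (SE 0.10), and a smaller second one had -1.35 (SE 0.30). A positive value thus stands for higher accessibility in senescent cells. A region was called higher or lower if its fold change exceeded 1.5 and its adjusted p-value was under 0.05, as in the methods of the study, and the words rose and fell are used of called regions.

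The beta cell markers PDX1, NKX2-2, NKX6-1, PAX6, ISL1, INS, IAPP and SLC30A8 each had a promoter region, with a mean signal of 183 for IAPP to 7894 for INS. No promoter region was listed for the leukocyte genes PTPRC and CD3E, and CD14 had one. Regions were listed for 3 of 3 fibroblast genes, at a mean signal of 17.6 to 142, for 1 of 2 endothelial genes and for 2 of 3 acinar genes, of which CPA1 reached 2101. Of the class II genes, HLA-DRA and CD74 had none and CIITA had one at 14.3. The part of any other cell type in the values below was not tested.

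Class I molecules carry peptides from inside the cell to its surface, where CD8 T cells read them. A heavy chain folds with beta-2-microglobulin in the endoplasmic reticulum, where the TAP transporter brings in peptides made by the proteasome and tapasin holds the empty molecule beside it. The promoters of these genes are known for response elements of interferon and NF-kappa-B and for the SXY module, on which NLRC5, RFX, CREB and NF-Y proteins assemble. Class I molecules on beta cells are known from type 1 diabetes, in which CD8 T cells recognise them.

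The DNA of the regions is shown first, because the promoters of these genes are known for response elements and their accessibility values differed. The RefSeq promoter windows (GRCh38.p14, from 250 bases before to 50 after the start) held 7 of the 9 genes. HLA-E and NLRC5 were not among them. The 250 bases before the start of HLA-B, HLA-C, HLA-F, B2M and TAP1 are given 5′ to 3′ on the coding strand, with the start directly after the last base. Capitals mark matches to AANNGAAA, the core of the interferon-stimulated response element, to the kappa-B site GGGATTCCC, and to both ends of an SXY-like match (TGACG or CGTCA, then 12 to 22 bases, then ATTGG), on either strand.
HLA-B (chr6:31357180-31357429, minus strand): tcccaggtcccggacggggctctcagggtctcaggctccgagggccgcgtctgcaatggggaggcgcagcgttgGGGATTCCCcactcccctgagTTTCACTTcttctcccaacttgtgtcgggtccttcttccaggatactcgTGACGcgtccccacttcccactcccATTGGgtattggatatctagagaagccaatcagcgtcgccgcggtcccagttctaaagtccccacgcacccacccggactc
HLA-C (chr6:31272093-31272342, minus strand): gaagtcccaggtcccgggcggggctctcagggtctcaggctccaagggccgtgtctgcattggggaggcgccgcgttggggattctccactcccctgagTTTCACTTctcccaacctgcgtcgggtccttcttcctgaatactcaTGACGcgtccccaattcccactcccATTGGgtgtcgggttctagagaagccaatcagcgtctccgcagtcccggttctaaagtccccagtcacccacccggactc
HLA-F (chr6:29723184-29723433, plus strand): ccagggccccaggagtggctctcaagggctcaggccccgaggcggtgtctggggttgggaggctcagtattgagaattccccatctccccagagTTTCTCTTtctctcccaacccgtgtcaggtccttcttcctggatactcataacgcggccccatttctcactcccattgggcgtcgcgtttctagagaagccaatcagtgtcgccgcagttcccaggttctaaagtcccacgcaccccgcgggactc
B2M (chr15:44711267-44711516, plus strand): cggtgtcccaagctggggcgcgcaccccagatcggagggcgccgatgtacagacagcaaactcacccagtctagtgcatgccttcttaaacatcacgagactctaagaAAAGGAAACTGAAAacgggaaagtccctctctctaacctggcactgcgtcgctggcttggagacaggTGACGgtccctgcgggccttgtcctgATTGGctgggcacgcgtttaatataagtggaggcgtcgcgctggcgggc
TAP1 (chr6:32853705-32853954, minus strand): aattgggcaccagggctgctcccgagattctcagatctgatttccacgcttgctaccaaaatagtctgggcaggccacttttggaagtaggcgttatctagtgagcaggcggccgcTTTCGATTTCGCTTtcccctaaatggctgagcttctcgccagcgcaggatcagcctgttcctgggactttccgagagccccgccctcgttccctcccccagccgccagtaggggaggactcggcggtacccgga

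The SXY-like match was found in the windows of HLA-B, HLA-C and B2M, and in 252 (1.17%) of the 21574 windows of protein-coding genes. With the base before the start counted as -1, it ran from base -106 to -77 in HLA-B, from -105 to -76 in HLA-C and from -75 to -45 in B2M. The exact kappa-B letters GGGATTCCC stood in HLA-B alone of the 7 genes, from base -176 to -168, and in 0.445% of all windows. Other forms of the kappa-B site were neither searched nor marked, so their presence in the other windows is not excluded. GAANNGAAA, the longer form of the interferon-stimulated element, was found in HLA-B, HLA-C and TAP2 and in 6.68% of all windows. The shorter AANNGAAA, which was chosen after the sequences had been seen and lies within the longer one, was found in all 7 windows and in 19.3% of all windows. Its matches overlapped each other in B2M, TAP1, TAP2 and TAPBP. The AP-1 site TGANTCA was in none of the 7 windows, against 6.18% of all. A match describes the letters of a window and does not show that a factor binds there.

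Over the whole group, promoter accessibility was lower more often than higher, mostly by less than the fold change limit. 1 of the 10 promoter regions fell, that of TAP1, against 9.04% of all promoter regions. None was called higher, against 3.56% of all. By the adjusted p-value alone, 7 of the 10 were lower and 0 higher, against 34.7% and 10.2% of all promoter regions. The same 7 were lower at an unadjusted p-value under 0.05. The log2 fold change was below 0 in 9 of the 10, against 69.3% of all promoter regions. Its median was -0.25, against -0.13. These shares and medians are descriptions and were not tested against other genes.

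**Figure D1:**
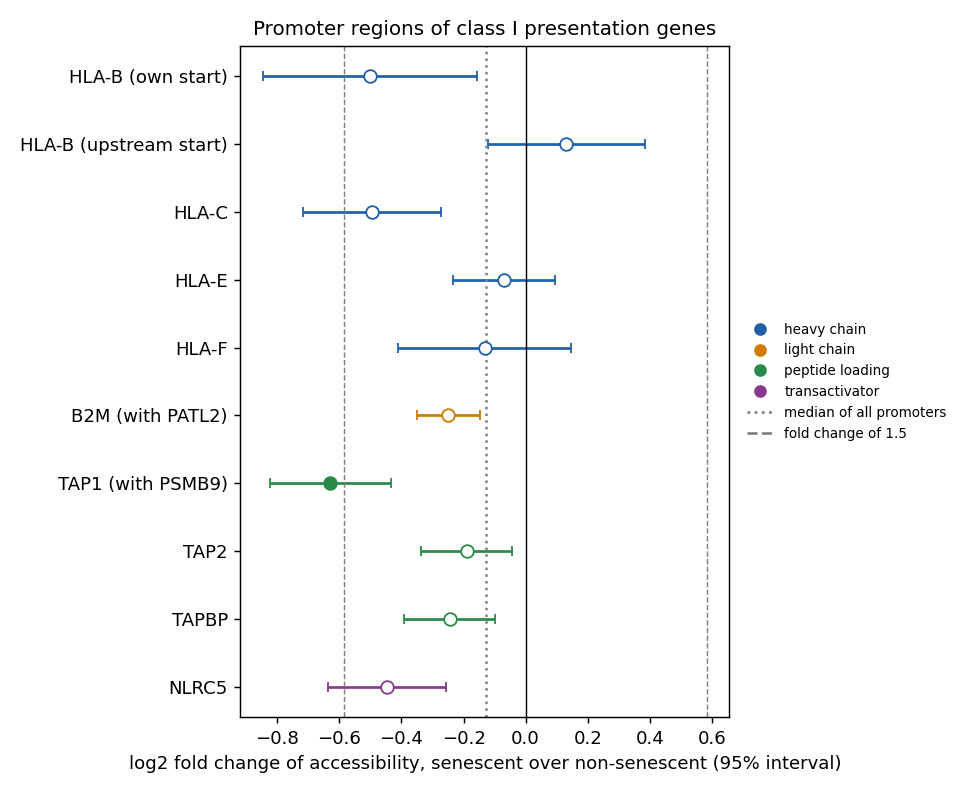
Log2 fold change (x axis) of the 10 promoter regions of the class I presentation genes, with 95% intervals from the SE of the authors' model. The filled point is the called region. The value of TAP1 was -0.63, and the one value above 0 was that of the upstream start of HLA-B at 0.13.

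The classical heavy chains HLA-B and HLA-C, which present peptides to CD8 T cells, had close values at their own starts. The HLA-B region (chr6:31356219-31357478, over exons 1 to 3) had a mean signal of 124 and a log2 fold change of -0.50 (SE 0.18, 95% interval -0.85 to -0.16, adjusted p = 0.0130). The HLA-C region (chr6:31271084-31272462, over exons 1 to 3) had a mean signal of 302 and a log2 fold change of -0.49 (SE 0.11, 95% interval -0.72 to -0.27, adjusted p = 8.1e-05). Both were lower in senescent cells by the adjusted p-value, by 29.4% and 29.0%, and neither passed the fold change limit. Reads of either gene can be hard to place, since the 300 bases around the starts were identical in 88.5% of the aligned columns. The longest other match of the HLA-B region on the main chromosomes was 1269 bp long at 87.2% identity. That of HLA-C was 1393 bp long at 86.2%, and both lay at a class I pseudogene on chromosome 6. Each of these regions also had a shorter match of higher identity on the main chromosomes. Per kb, the HLA-B region had a mean signal of 98.3 and the HLA-C region of 219, against a median of 507 over all promoter regions. No filter on mapping quality is stated in the methods of the study, and the part of read placement in these values was not tested.

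HLA-B had a second promoter region at the start of longer transcripts, 9928 bp upstream of the main start (chr6:31366787-31367428). It lay over exon 1 of a long non-coding RNA on the other strand and over that of the pseudogene DHFRP2. Its mean signal was 238 and its log2 fold change was 0.13 (SE 0.13, 95% interval -0.12 to 0.38, adjusted p = 0.427). The longest other match of this upstream region covered 281 bp on chromosome 6, or 43.8% of the region, at 93.6% identity. The part of read placement in its value was not tested. The intervals of the 2 HLA-B regions did not overlap. The difference between them was not tested, since the table holds no value per library.

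The nonclassical heavy chains had values near 0. HLA-E presents signal peptides of other class I molecules to receptors of natural killer cells. Its region (chr6:30489182-30490697, over exons 1 to 3) had a mean signal of 810.0 and a log2 fold change of -0.07 (SE 0.08, 95% interval -0.23 to 0.09, adjusted p = 0.527). HLA-F, a class I chain of narrower expression, had a mean signal of 257 and a log2 fold change of -0.13 (SE 0.14, 95% interval -0.41 to 0.15, adjusted p = 0.477) at chr6:29723067-29723933, over exons 1 and 2. Neither 95% interval reached a fold change of 1.5 in either direction. The window of HLA-F printed above was 79.7% identical to that of HLA-B and 78.5% to that of HLA-C, and it held neither the SXY-like match nor the kappa-B letters in the forms searched.

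B2M encodes beta-2-microglobulin, the light chain that all of these heavy chains share. Its promoter region (chr15:44710975-44712952, over exon 1) was the strongest of the group, with a mean signal of 2143, or 1084 per kb. It also lies in the promoter window of PATL2, which is read from the other strand. The log2 fold change was -0.25 (SE 0.05, 95% interval -0.35 to -0.15, adjusted p = 8.6e-06), a value 15.8% lower in senescent cells. The change was small beside the limit of 1.5 and had the narrowest interval of the 10.

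The TAP transporter is made of TAP1 and TAP2. The TAP1 region (chr6:32853107-32854538, over exon 1) had a mean signal of 480.1. It fell by 0.63 on the log2 scale (SE 0.10, 95% interval -0.82 to -0.43, adjusted p = 4.0e-09), so that accessibility in senescent cells was 0.647 times that in non-senescent cells (95% interval 0.565 to 0.740). The value lay at percentile 8.94 of all promoter regions. The region is shared with PSMB9, whose start lies on the other side of the same short stretch of DNA and which encodes a catalytic subunit of the immunoproteasome. The part of each gene in the fall cannot be told apart. A Wald test against the limit of 1.5 did not call the region (adjusted p = 1.0). Without the trend of the fold change on mean signal the value was -0.52, and without that on GC content -0.48, both within the limit.

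The TAP2 region (chr6:32838109-32839129, over exons 1 and 2) had a mean signal of 879 and a log2 fold change of -0.19 (SE 0.07, 95% interval -0.34 to -0.04, adjusted p = 0.0281). A readthrough gene starts there as well. TAPBP encodes tapasin, which holds empty class I molecules beside the transporter. Its region (chr6:33312328-33314173, over exons 1 to 3) had a mean signal of 862 and a log2 fold change of -0.25 (SE 0.07, 95% interval -0.39 to -0.10, adjusted p = 0.00371). Both values were lower in senescent cells by the adjusted p-value alone, by 12.3% and 15.6%. With either trend removed they were no longer so.

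NLRC5 is the transactivator of class I genes. It binds no DNA by itself and is held at their promoters by RFX, CREB and NF-Y proteins on the SXY module. The NLRC5 promoter region (chr16:56989191-56989933, with its midpoint in the untranslated part of exon 1) had a mean signal of 442 and a log2 fold change of -0.45 (SE 0.10, 95% interval -0.64 to -0.26, adjusted p = 2.6e-05). It was 26.7% lower in senescent cells by the adjusted p-value, within the fold change limit.

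The promoter regions also differed in mean signal, and the part of read placement in this was not tested. Per kb of region, mean signal was highest at B2M (1084), followed by TAP2 (860.5), NLRC5 (594), HLA-E (534), TAPBP (467), the upstream start of HLA-B (371), TAP1 (335), HLA-F (296), HLA-C (219) and the main start of HLA-B (98.3). GC content ran from 55.0% at B2M to 69.0% at NLRC5. Its median over the 10 regions was 63.1%, against 62.2% of all promoter regions.

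**Figure D2:**
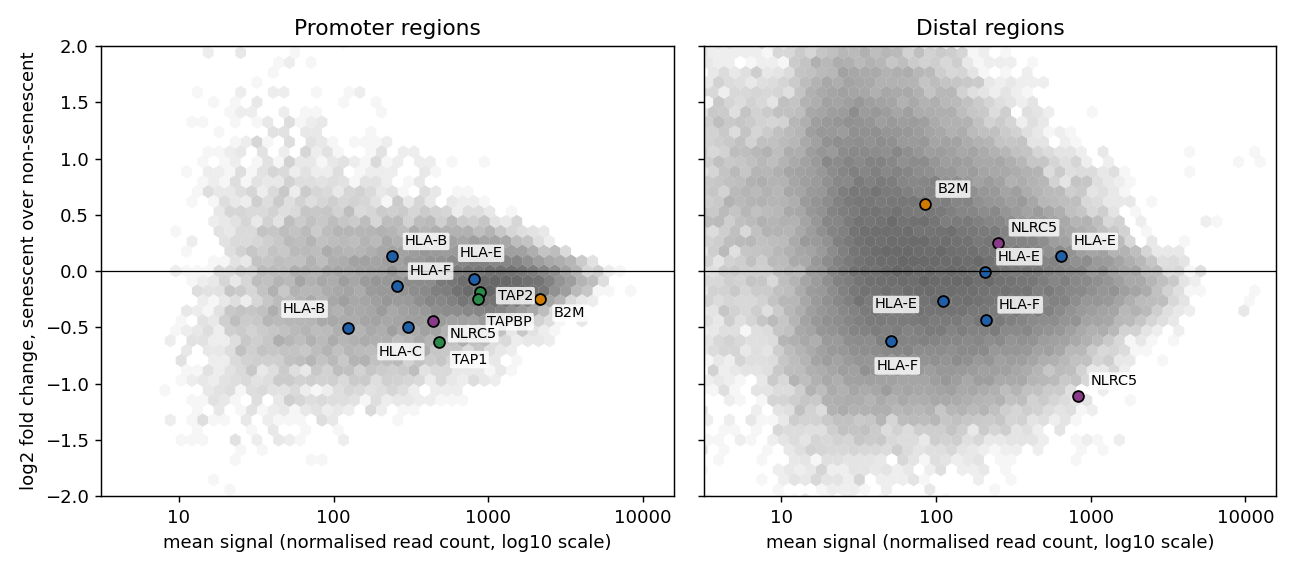
Mean signal (x axis, log10 scale) against the log2 fold change (y axis, cut at 2 on either side of 0) for all promoter regions on the left and all distal regions on the right, with darker cells holding more regions and the class I presentation genes as coloured points. The NLRC5 region at -1.11 lies at the lower edge of the distal regions of its signal.

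The fold changes of the table moved with mean signal and with GC content over all regions, so the promoter values were also read with each trend removed, as a running median. By the adjusted p-value alone, 5 of the 10 regions were then lower without the trend on mean signal (B2M, NLRC5, HLA-C, the main start of HLA-B, and TAP1), against 22.8% of all promoter regions. Without the trend on GC content 4 were lower (B2M, NLRC5, HLA-C and TAP1), against 21.98%. HLA-C was then at -0.40 and -0.35, NLRC5 at -0.35 and -0.31, and B2M at -0.14 and -0.19, in the order of mean signal and GC content. The main start of HLA-B was at -0.48 (adjusted p = 0.0193) and -0.35 (adjusted p = 0.0954).

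**Figure D3:**
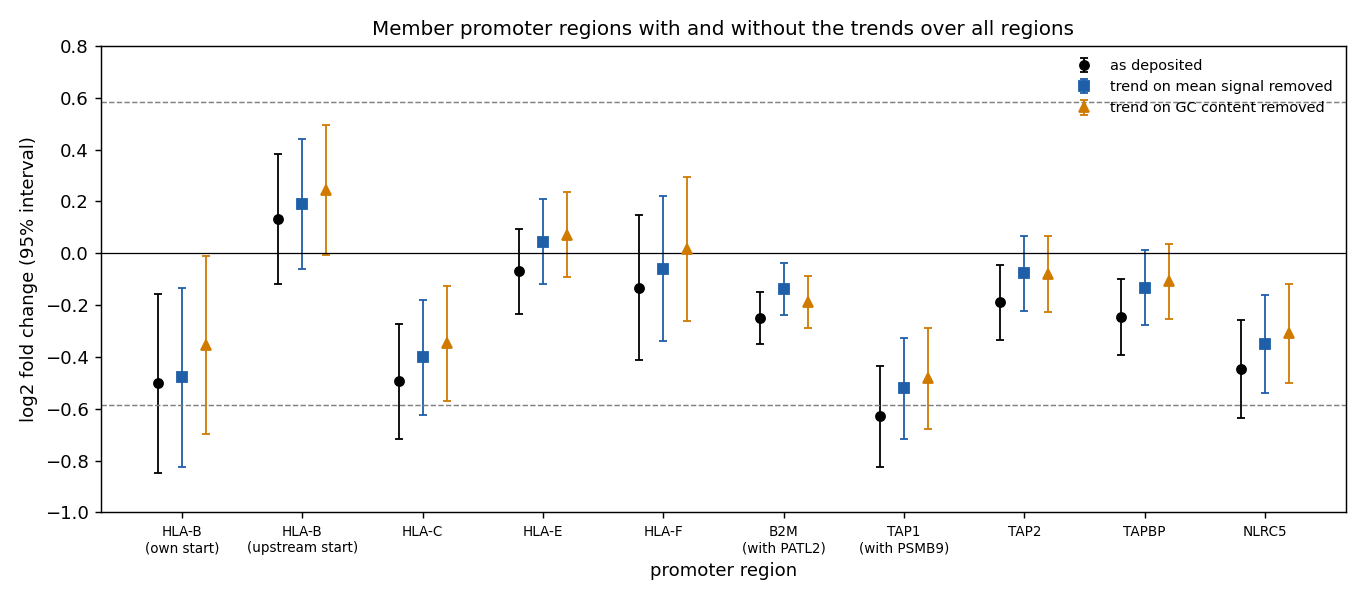
Log2 fold change (y axis) of the 10 promoter regions as deposited and with the trend of all regions on signal, or on GC content, removed, with 95% intervals from the deposited SE and dashed lines at a fold change of 1.5. TAP1 moved from -0.63 to -0.52 and -0.48, inside the dashed line.

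TAP1, TAP2 and the immunoproteasome genes PSMB8 and PSMB9 lie next to each other within the major histocompatibility complex. The region between TAP2 and TAP1 is a promoter region of PSMB8 and PSMB9 (chr6:32844014-32845021). It had a mean signal of 962 and a log2 fold change of -0.58 (adjusted p = 5.2e-14, SE 0.07), just within the fold change limit. The 3 promoter regions of the cluster were thus all lower by the adjusted p-value, and the TAP1 region alone was called. Both distal regions beyond PSMB9 were assigned to that gene. The nearer one, 14.6 kb from the TAP1 start, was weak, with a mean signal of 31.9 and a log2 fold change of 0.75 (adjusted p = 0.0599, SE 0.34), and the farther one, at 40.9 kb, had a mean signal of 1581 and a log2 fold change of -0.17 (adjusted p = 0.0144, SE 0.06).

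**Figure D4:**
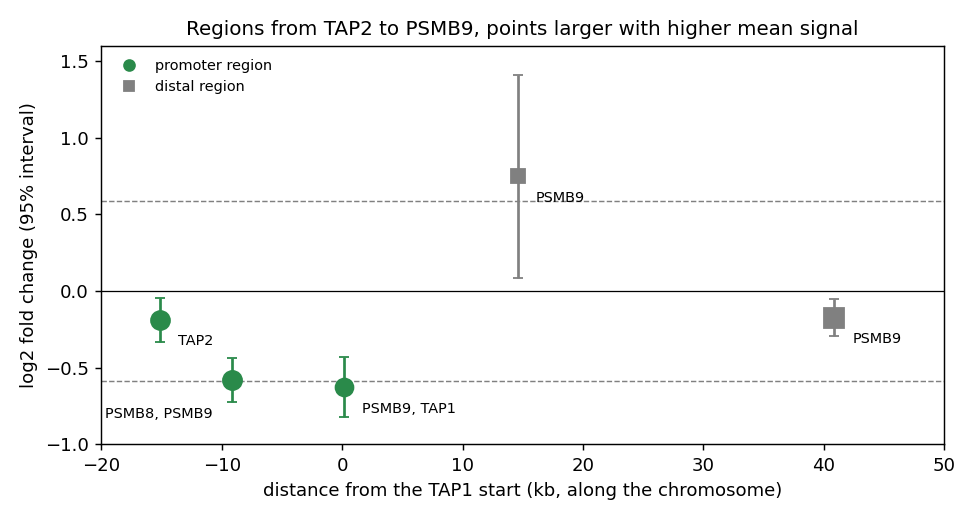
Log2 fold change (y axis, with 95% intervals) of the 5 regions from TAP2 to PSMB9 by their distance in kb from the TAP1 start (x axis). The 3 promoter regions lie at -0.19, -0.58 and -0.63, and the dashed lines mark a fold change of 1.5.

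7 of the 9 genes lie in the major histocompatibility complex on chromosome 6, taken as the span from 28.5 to 33.5 Mb. The 108 other promoter regions there had a median log2 fold change of -0.09. Among them 2 were called higher and 7 lower, against 3.56% and 9.04% of all promoter regions. By the adjusted p-value alone 35 of the 108 were lower, against 34.7% of all promoter regions. The 8 promoter regions of class I presentation genes in the complex had a median of -0.22, with 5 of 8 lower by the adjusted p-value. The difference was not tested.

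Of the 8 distal regions 1 rose and 1 fell, against 18.1% and 10.6% of all distal regions. By the adjusted p-value alone 1 was higher and 2 were lower, against 23.4% and 18.3%. The median log2 fold change was -0.14, against 0.08 over all distal regions. HLA-B, HLA-C, TAP1, TAP2 and TAPBP had no distal region by the rule. None of the 8 lay in the promoter window of another protein-coding gene.

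The distal region that fell lay inside NLRC5, and the one that rose lay beyond the end of B2M. The middle 300 bases of the former are given (hg38), since it carries the largest change of the group. None of the 4 motifs fixed for the search, and no AANNGAAA, was found in the middle 300 bases of any of the 8 on either strand, so the sequence holds no capitals. Among all 88448 distal regions, the middle 300 bases held GAANNGAAA in 12.6%, AANNGAAA in 35.2%, TGANTCA in 11.1%, the kappa-B letters in 0.197% and the SXY-like match in 0.149%.
NLRC5, lower in senescent cells (chr16:57061346-57061645, plus strand): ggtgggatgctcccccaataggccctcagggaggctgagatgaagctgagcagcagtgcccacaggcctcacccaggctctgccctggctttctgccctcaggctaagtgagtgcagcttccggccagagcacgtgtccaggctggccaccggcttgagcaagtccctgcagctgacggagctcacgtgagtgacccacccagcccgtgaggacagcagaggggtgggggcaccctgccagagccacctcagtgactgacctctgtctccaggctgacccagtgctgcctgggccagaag

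The NLRC5 region (chr16:57061089-57061903), 71938 bp after the main start of the gene, had a mean signal of 828, above 95.6% of all distal regions. It fell by 1.11 on the log2 scale (SE 0.08, 95% interval -1.27 to -0.95, adjusted p = 5.9e-39). Accessibility in senescent cells was 0.464 times that in non-senescent cells (95% interval 0.415 to 0.519). The value lay at percentile 2.93 of all distal regions. The region covers exons 31 and 32 of the main NLRC5 transcript, with its midpoint in an exon. It also lies 3430 bp after the start of a short NLRC5 transcript that GENCODE marks as incomplete at its 5′ end. The region was G and C rich (61.0%, percentile 93.1 of distal regions). Its fall passed the Wald test against the limit of 1.5 (adjusted p = 2.6e-08), and the value was -0.998 without the trend on mean signal and -0.974 without that on GC content. It had no other match in the genome by blastn.

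A second NLRC5 region lay 5886 bp before the main start (chr16:56983323-56984020), over exons 15 and 16 of CETP, a gene of lipid transfer. It had a mean signal of 251 and a log2 fold change of 0.25 (SE 0.12, 95% interval 0.01 to 0.49, adjusted p = 0.0840). The promoter and the 2 distal regions of NLRC5 thus had values of -0.45, -1.11 and 0.25.

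The distal region that rose lay downstream of B2M, between genes. It was weak, with a mean signal of 84.4 against 2143 at the promoter. Its log2 fold change was 0.60 (SE 0.21, 95% interval 0.18 to 1.01, adjusted p = 0.0140), a fold change of 1.51, just over the limit. It was no longer called at an adjusted p-value under 0.01, by the Wald test over 1.5, or with either trend removed. Part of its sequence is repeated, with 100 other matches by blastn. The HLA-E promoter region had 16252 such matches, the strongest HLA-E distal region 7791 and the B2M promoter region 370. The longest of these covered 8.11%, 10.4% and 10.1% of the region.

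HLA-F and HLA-E had the other 5 distal regions, and none was called. The stronger HLA-F region (chr6:29748433-29749520, in exon 1 of the antisense RNA HLA-F-AS1) lay 25542 bp after the main start, with a mean signal of 212 and a log2 fold change of -0.43 (adjusted p = 0.00708, SE 0.14). The weaker one, 29691 bp after it, had a mean signal of 50.9 and a value of -0.62 (SE 0.28, adjusted p = 0.0656). This weaker region matched another stretch of chromosome 6 over its full length of 384 bp, at 91.4% identity. The strongest HLA-E region (chr6:30516014-30516824, in exon 1 of LINC02569) had a mean signal of 641 and a log2 fold change of 0.13 (adjusted p = 0.249, SE 0.09). The 2 others of HLA-E were at -0.27 (SE 0.20) and 0.00 (SE 0.13). The latter matched another stretch of chromosome 6 over 688 bp at 87.5% identity. The part of read placement in these values was not tested. All 5 lie nearer to the start of a non-coding RNA or pseudogene than to that of the gene they were assigned to.

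**Figure D5:**
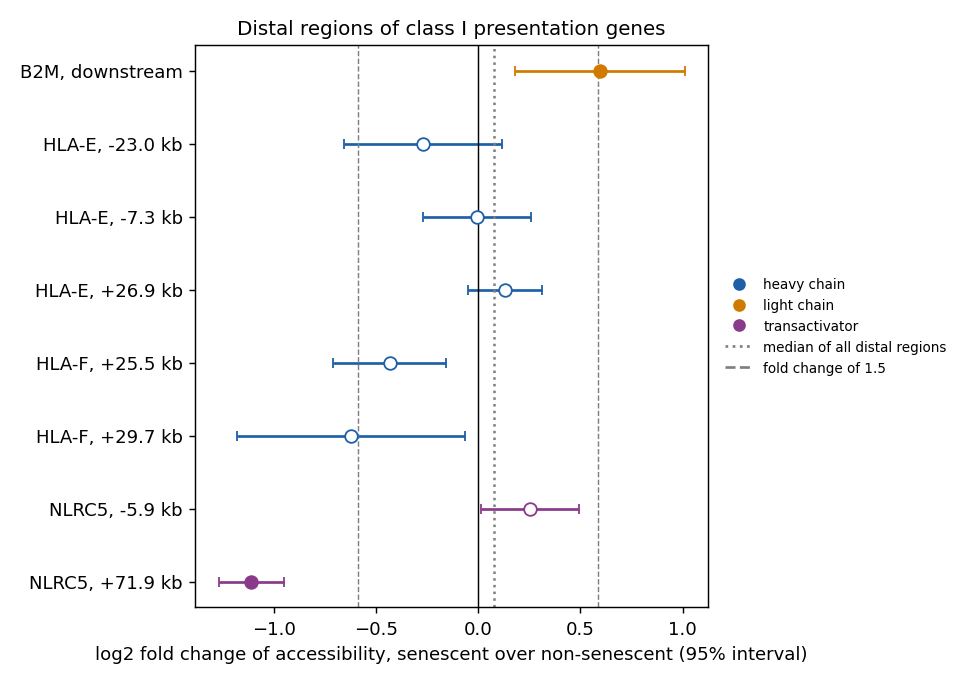
Log2 fold change (x axis) of the 8 distal regions, with 95% intervals from the SE of the authors' model and the signed distance in kb from the main start of the gene beside its name, or its side for B2M. The filled points are the called regions, NLRC5 at -1.11 and B2M at 0.60.

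The other genes of the pathway were taken from a list of 18, with 22 promoter and 23 distal regions. Of the promoter regions 2 fell and 0 rose, against 9.04% and 3.56% of all promoter regions, and the median log2 fold change was -0.11, against -0.13. By the adjusted p-value alone 9 were lower and 2 higher, against 34.7% and 10.2%. Of the distal regions 5 rose and 2 fell, against 18.1% and 10.6% of all distal regions. These counts lie near the shares over all regions. Among the immunoproteasome genes and their activator (PSMB8, PSMB9, PSMB10, PSME1 and PSME2), 1 of 5 promoter regions fell, which is the one shared with TAP1. PSME1, a subunit of the activator, had a promoter value of -0.23 (SE 0.07, adjusted p = 0.00191) and PSMB10 of -0.07 (SE 0.05, adjusted p = 0.278).

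The aminopeptidases ERAP1 and ERAP2 trim peptides in the endoplasmic reticulum to the length that class I molecules hold. The ERAP2 promoter fell by 0.82 on the log2 scale (SE 0.16, adjusted p = 1.4e-06), at a mean signal of 164. The stronger ERAP1 promoter region, with a mean signal of 1203, had a value of 0.00 (SE 0.06, 95% interval -0.12 to 0.12). A distal region of ERAP1 had the largest rise of the list, 1.72 (SE 0.23, adjusted p = 1.8e-12), at a mean signal of 96.6, and a weaker one rose by 1.12 (SE 0.38, adjusted p = 0.0108). In the chaperone group (CALR, CANX, PDIA3 and TAPBPL) 0 of 5 promoter regions were called, against 3.56% higher and 9.04% lower over all promoter regions. Of the 3 distal regions of this group 2 rose, against 18.1% of all distal regions. The third and strongest, that of the lectin chaperone CANX, had a mean signal of 885 and a value of -0.46 (adjusted p = 1.6e-08, SE 0.08), lower by the adjusted p-value and within the fold change limit. That of PDIA3, a disulfide isomerase of the loading complex, rose by 1.27 (SE 0.15, adjusted p = 1.2e-16), and that of TAPBPL, a relative of tapasin, by 0.73 (SE 0.25, adjusted p = 0.0109).

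Of the DNA-binding partners of NLRC5 (RFX5, RFXANK, RFXAP, NFYA, NFYB, NFYC and CREB1), 0 of 9 promoter regions were called. Over all promoter regions 3.56% were called higher and 9.04% lower. Of their 13 distal regions 1 rose and 2 fell, against 18.1% and 10.6% of all distal regions. These counts are small and were not tested. RFX5, RFXANK and RFXAP, which make up the RFX complex, had promoter values of -0.11 (SE 0.06), -0.11 (SE 0.06) and -0.10 (SE 0.07). NFYB had promoter regions of opposite sign, at -0.52 (SE 0.12, adjusted p = 0.000121) and 0.36 (SE 0.09, adjusted p = 0.000257). A distal region of CREB1 had the largest fall among the distal regions of the list, by 0.81 on the log2 scale (SE 0.17, adjusted p = 1.3e-05), and one of NFYC fell by 0.66 (SE 0.18, adjusted p = 0.000863). A distal region of NFYB rose by 0.62 (SE 0.25, adjusted p = 0.0362).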

How the data were processed

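ATAC-seq libraries of EndoC-βH3 cells, 3 senescent and 3 non-senescent by the labels, were compared. Per the methods of the study, the authors used Trim Galore for trimming and Bowtie2 for alignment to hg38, left out duplicates and mitochondrial reads, shifted reads for the transposase, found peaks with MACS2, counted the reads of merged peaks with bedtools and compared the groups with DESeq2. Versions are not given in the sources used here. No filter on mapping quality is stated.

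The mean signal in the deposited table is the authors' normalised read count averaged over libraries. The log2 fold change, its SE and the score (Wald statistic) in the deposited table are the authors' log2 values. Raw and adjusted p-values in the deposited table are the authors' too. They were checked to equal those of a two-sided Wald test, adjusted by Benjamini and Hochberg over the 108542 regions. The table has no column of a single library, so depth per library, replicates and refits could not be examined, and p-values measure the spread between 3 and 3 libraries, which may be technical. The authors' fold changes were used because no counts were available to test.

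Starts were taken as counted from 0 and are given from 1. Genes came from GENCODE 44. Intervals are the fold change ± 1.96 SE. Regions were assigned with pandas 2.3.3, compared with the genome by blastn 2.17.0 (megablast, at least 85% identity), and trends were running medians over 1000 regions on each side. Motifs were sought in RefSeq promoter windows, which equalled the reference in 7 of 7 genes, and in the middle 300 bases of distal regions. The steps were tested on simulated data. Members and gene lists were chosen with earlier results of these data known. All 9 members were named with every promoter region, along with each member's distal region of highest signal and every called one, and companions with a called promoter or the strongest rise and fall. The other values of the companion list, and of the uncalled distal regions, were named after they had been seen. The alternatives were a stricter adjusted p-value of 0.01, calls without the fold change limit, a Wald test against the limit of 1.5, a minimum mean signal of 50, centring on the median, removal of either trend, promoter windows of 1 and 0.5 kb, a distal limit of 50 kb and starts of all gene types. Some items of the marker lists and some sequence are not reported here.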

Additional observations from a re-analysis of the deposited data

How the results depend on the processing

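At an adjusted p-value under 0.01 there were 0 distal regions higher. Without the fold change limit 7 promoter and 2 distal regions were lower. When the Wald test was made against a fold change of 1.5 there were 0 promoter regions lower and 0 distal regions higher. With the trend on mean signal removed 0 promoter regions were lower, 0 distal regions higher and 2 distal regions lower, and the median of the promoter regions was -0.14. With the trend on GC content removed 0 promoter regions were lower and 0 distal regions higher, and that median was -0.15. The HLA-E promoter, which was not called, then changed sign, to 0.044 without the trend on mean signal and 0.071 without that on GC content, as did the HLA-F promoter, to 0.016 without the latter. With starts of all gene types 3 distal regions remained and 5 left, since they lay nearer to another gene, while 1 region beyond NLRC5 was gained (log2 fold change -0.25, SE 0.33). The median of these 4 was 0.0022. The fall of the NLRC5 distal region was called under each of these alternatives. This region met the limit of 50 kb by the start of the short, incomplete NLRC5 transcript, 3430 bp away. The main start lay 71938 bp away, beyond that limit. Narrower promoter windows, centring on the median, a minimum mean signal of 50 and a distal limit of 50 kb moved no count.

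No paired analysis was possible because values per library are not given, though the labels share replicate numbers between the groups. For the same reason no replicate was left out and no other tool was run. Precision was lowest in the weak regions, where the SE reached 0.28 among the regions of the 9 genes.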
